A study of Mus musculus with 22 samples.

Results

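The genes described here are 33 components of protein folding in the endoplasmic reticulum (ER) and of the unfolded protein response, measured by bulk RNA-seq in fibroblasts sorted from mouse back skin. They were taken from a fixed list of symbols (9 ER chaperones and co-chaperones, 2 lectin chaperones, 4 disulfide isomerases, 7 genes of ER-associated degradation, 3 stress sensors, 4 transcription factors and feedback regulators, 4 translocon and export genes), matched to the Ensembl identifiers of the count table through GENCODE M21. All 33 were found among the 55414 genes of the table, and all 33 were among the 17554 genes with enough counts to be tested. Ddit3 had 2 identifiers, one of them at 0 counts in every library, and the other was used.

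Every mouse had a tunnel made under the back skin through a cut near the tail. In EXP mice a hydrogel expander, used to stretch the skin, was stitched in near the neck, and CTRL mice had the operation alone, so wounding was common to both arms. Cells were collected on day 1, 2 or 4, with 4 CTRL and 5 EXP libraries on day 1, 3 and 3 on day 2, and 4 and 3 on day 4, which makes 22 libraries in 6 groups. Live cells lacking CD31, CD45, CD117 and EpCAM and carrying CD34 and PDGFRα were sorted. Strain, genotype, age and sex are not given in the sources used here, nor is it stated whether each library came from 1 animal, so the p-values measure the spread between these libraries.

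Secreted and membrane proteins enter the ER through the Sec61 translocon and are folded there by chaperones such as BiP (Hspa5), by the calnexin and calreticulin lectin cycle, and by protein disulfide isomerases. Chains that do not fold are retrotranslocated and degraded (ER-associated degradation), and finished cargo leaves in COPII vesicles. When folding demand exceeds capacity, the sensors IRE1 (Ern1), PERK (Eif2ak3) and ATF6 act through XBP1, ATF4 and cleaved ATF6 to raise chaperones, degradation factors and stress genes. Fibroblasts carry a large folding load because they secrete collagen. XBP1 is activated by splicing of its mRNA, ATF4 mainly by translation and ATF6 by cleavage, and gene counts see none of these steps.

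The ER stress response element (ERSE) is the promoter motif through which ATF6 and XBP1 act on many chaperone genes. It was searched as CCAAT, any 9 bases, CCACG, on both strands of the RefSeq promoter windows of GRCm38.p6 (250 bases before to 50 after the start). Windows were matched for 28 of the 33 genes. Those of Derl1, Atf6, Manf, Sec61a1 and Hyou1 were not matched. The motif was in 9 of the 28, against 39 of 32851 windows of the table (0.119%). Both motif ends are in capitals in the 10 matches, which are shown because they mark the members that share a promoter element; each reads 5′ to 3′ on the strand given.
Hspa5, chr2:34772025-34772043, + strand: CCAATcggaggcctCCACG
Calr, chr8:84847075-84847093, + strand: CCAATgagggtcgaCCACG
Derl3, chr10:75893242-75893260, - strand: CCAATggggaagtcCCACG
Hsp90b1, chr10:86705638-86705656, - strand: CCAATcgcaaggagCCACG
Hsp90b1, chr10:86705533-86705551, + strand: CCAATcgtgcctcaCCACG
Canx, chr11:50325800-50325818, - strand: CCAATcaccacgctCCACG
Pdia6, chr12:17266491-17266509, + strand: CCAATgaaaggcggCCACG
Dnajc3, chr14:118937827-118937845, + strand: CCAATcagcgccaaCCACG
Creld2, chr15:88819520-88819538, - strand: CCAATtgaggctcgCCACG
Syvn1, chr19:6046532-6046550, + strand: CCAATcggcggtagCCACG
Hsp90b1 had 2 matches, 1 on each strand. Of the other response motifs, ERSE-II (ATTGG, any base, CCACG) was in 2 of the 28 genes, Herpud1 and Dnajb11, against 0.0365% of all windows. UPRE (TGACGTGG) was in the Sec24d window, against 0.676% of all windows. The C/EBP-ATF element (TGATG, any base, AAT), the kind of site that CHOP and ATF4 dimers bind, was in 0 of 28, against 0.965%. A match describes letters in a window and is not a measured binding site.

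The 250 bases before the start are shown for 4 genes on which the results below turn, the chaperone Hspa5, 2 genes that led the change in CTRL (Creld2 and Sdf2l1) and the isomerase Pdia5, which had the smallest p of the 33 for an effect that differed between days. Capitals mark the whole ERSE match, which reads as its reverse complement in Creld2.
Hspa5, chr2:34771840-34772089, + strand: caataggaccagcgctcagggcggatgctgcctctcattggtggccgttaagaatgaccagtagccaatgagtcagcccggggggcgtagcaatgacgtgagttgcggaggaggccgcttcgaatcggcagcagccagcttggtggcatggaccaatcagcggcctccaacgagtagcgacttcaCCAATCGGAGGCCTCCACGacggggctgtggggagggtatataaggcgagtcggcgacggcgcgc
Creld2, chr15:88819396-88819645, + strand: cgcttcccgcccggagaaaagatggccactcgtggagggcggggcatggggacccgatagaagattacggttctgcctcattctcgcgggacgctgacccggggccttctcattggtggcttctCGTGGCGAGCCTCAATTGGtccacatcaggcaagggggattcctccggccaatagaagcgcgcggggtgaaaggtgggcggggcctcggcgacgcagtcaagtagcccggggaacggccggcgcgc
Sdf2l1, chr16:17132384-17132633, - strand: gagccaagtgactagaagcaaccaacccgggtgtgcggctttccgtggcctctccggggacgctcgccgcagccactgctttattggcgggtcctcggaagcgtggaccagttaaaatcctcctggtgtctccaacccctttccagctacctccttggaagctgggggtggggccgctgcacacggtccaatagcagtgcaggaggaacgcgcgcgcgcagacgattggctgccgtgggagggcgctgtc
Pdia5, chr16:35490874-35491123, - strand: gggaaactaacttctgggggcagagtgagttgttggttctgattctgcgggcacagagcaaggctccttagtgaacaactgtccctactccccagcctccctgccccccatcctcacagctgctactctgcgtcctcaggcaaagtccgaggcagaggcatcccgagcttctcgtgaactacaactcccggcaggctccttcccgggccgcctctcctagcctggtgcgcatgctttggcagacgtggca
The windows of Sdf2l1 and Pdia5 held none of the 4 motifs.

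Library totals were 21461294 to 30210204 counts, and 32 of the 33 genes had over 100 counts in every library. Derl3 was the exception. The sorted markers Pdgfra (227 to 1020 counts scaled to a common library size, CPM) and Cd34 (217 to 2350 CPM) were present in every library. Col1a1, Col1a2 and Col3a1 together took 19.8% to 24.5% of counts in CTRL and 9.97% to 15.8% in EXP on day 1. On day 2 the ranges were 26.9% to 30.7% and 6.95% to 16.1%, and on day 4 they were 20.6% to 27.9% and 9.78% to 24.2%. The calls also depended on the scaling. With library totals in place of TMM scaling the median log2 fold change of all genes moved from 0.02 to 0.21 on day 1, from 0.02 to 0.49 on day 2 and from 0.03 to 0.36 on day 4. The share of higher genes among all calls then went from 48.7% to 66.2%, from 57.5% to 90.5% and from 57.0% to 80.8%. Totals without those 3 collagen genes gave shares of 48.9%, 73.6% and 69.5%. The 33 genes together took 1.34% of counts in day 1 CTRL (SD 0.159, n = 4), 1.03% in day 1 EXP (SD 0.156, n = 5), and 0.744% in day 2 CTRL (SD 0.0823, n = 3) with 1.09% in day 2 EXP (SD 0.2, n = 3). On day 4 they took 0.858% in CTRL (SD 0.144, n = 4) and 0.96% in EXP (SD 0.229, n = 3). Of the counts outside the 3 collagens the shares, CTRL before EXP, were 1.74% and 1.18% on day 1, 1.04% and 1.24% on day 2, and 1.16% and 1.14% on day 4. Values below are TMM-scaled CPM, fold changes are EXP over CTRL on the log2 scale, and a gene is called at an edgeR quasi-likelihood adjusted p under 0.05 over all 17554 genes.

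The libraries also split in a way that the groups do not explain. A set of 192 genes that follow Rnf10 within groups was high in 7 libraries and low in 15. On day 1 CTRL replicates 1 to 3 and EXP replicates 1 and 2 were high, and on day 4 CTRL replicates 3 and 4 were high. Among the 33 genes only Edem1 belonged to that set (r = 0.98 with Rnf10 over the 22 libraries after group means were removed).

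Exons of 12 of the 33 genes overlap those of another gene (Hsp90b1, Dnajb9, Manf, Pdia3, Pdia4, Pdia6, Syvn1, Derl2, Eif2ak3, Ddit3, Ppp1r15a and Sec61a1). Whether reads were counted by strand is not given in the sources used here, so reads of such overlaps cannot be assigned to 1 gene.

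On day 1 the ER genes were low in EXP. The test called 19 of 33 lower, against 14.7% of all tested genes, and 2 higher, against 13.9%. The median log2 fold change of the 33 was -0.58, against 0.02 for all tested genes. On day 2 the test called 4 lower (background 5.71%), and 0 higher (background 7.72%), where 7 were higher at an unadjusted p under 0.05. Shares of all genes at an unadjusted p under 0.05 are not given here. DESeq2 called 2 of the 33 higher on day 2, beside 1691 of 17547 genes. On day 4 the edgeR test called 10 lower (9.66%) and 1 higher (12.8%). Leaving out day 4 EXP replicate 1 left 2 of the lower calls on that day, leaving out EXP replicate 2 left 5, and leaving out CTRL replicate 1 or CTRL replicate 2 left 6. Calls in either direction over all genes were then 1633, 2001, 3615 and 3577, against 3943. On day 2 leaving out any 1 of the 6 libraries reduced the 4 lower calls to 1 or 2. Calls in either direction over all genes were then 891 to 2177, against 2359. On day 1 leaving out CTRL replicate 1 or replicate 3 left 1 of the higher calls, where 1898 and 1916 of all genes were higher, against 2441. Within the high side of the split on day 1 (3 CTRL and 2 EXP libraries) 6 were lower and 0 higher, and within the low side on day 4 (2 CTRL and 3 EXP libraries) 0 were called in either direction, where 12 had an unadjusted p under 0.05 and 1 of 16462 genes was called. DESeq2 was not run on these subsets. Of 15942 genes tested within the high side on day 1, 2210 were called, 1014 of them higher. With library totals the numbers of lower and higher calls were 13 and 3 on day 1, 1 and 13 on day 2, and 4 and 4 on day 4. Without the 3 collagens they were 19 and 2, then 1 and 4, then 8 and 2. Over all genes library totals called 5129, 4632 and 5289 on days 1, 2 and 4, of which 3397, 4191 and 4271 were higher. Without the 3 collagens the calls over all genes were 4873, 2720 and 4380, of which 2383, 2003 and 3043 were higher. So most calls of the 33 genes on day 1 were lower under each of these scalings, whereas their balance on day 2 turned with the scaling. None of the called genes of the 33 changed sign under these scalings.

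**Figure D1:**
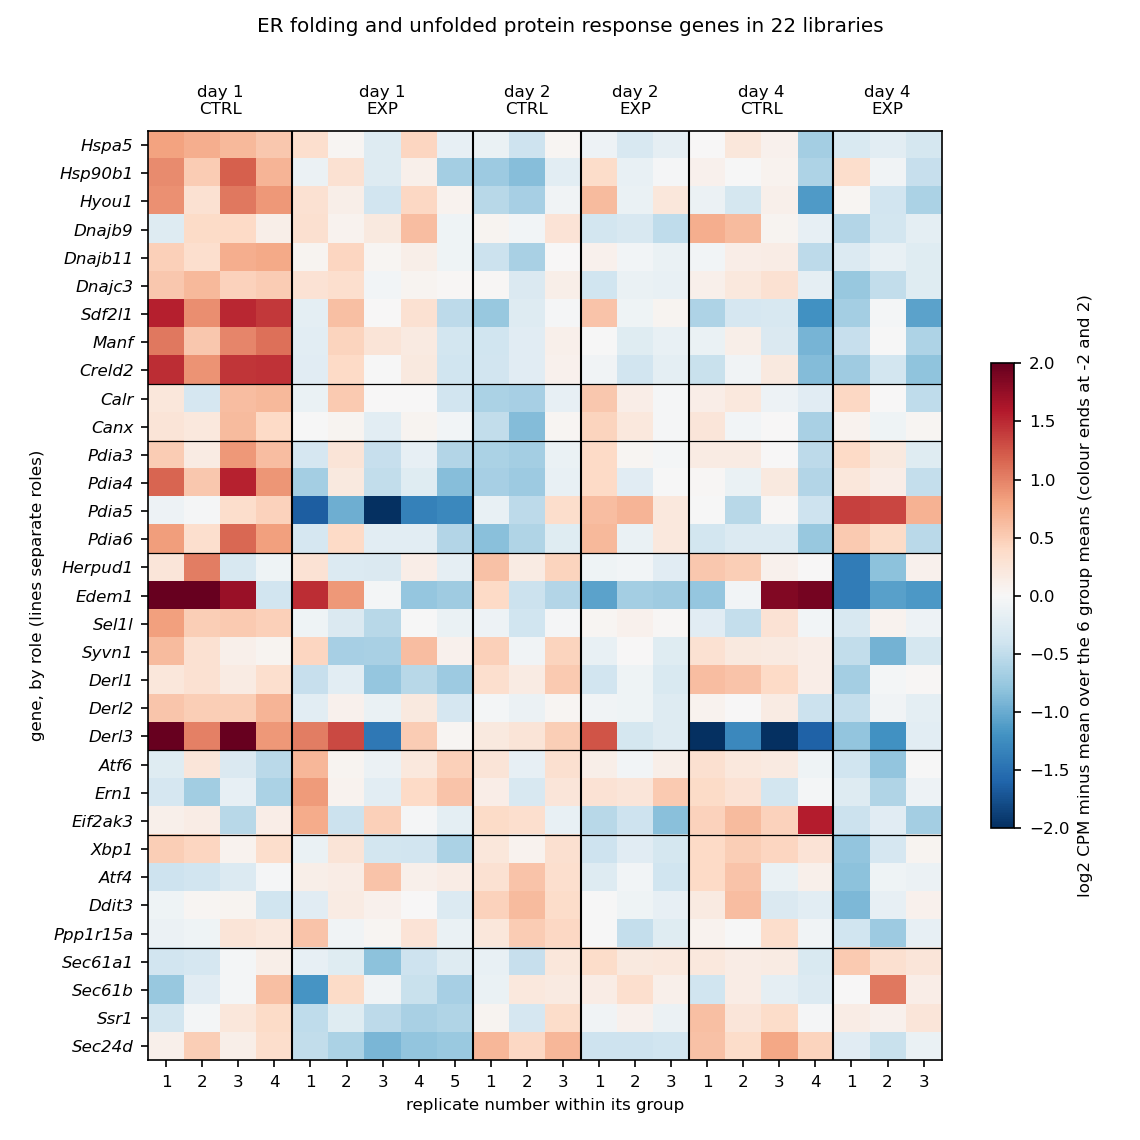
Log2 CPM of each of the 33 genes (rows, by role) in each of the 22 libraries (columns, by day and arm), minus the mean of the 6 group means of that gene. The rows of Hspa5, Hsp90b1, Sdf2l1, Manf, Creld2, Pdia4 and Pdia6 are red in all 4 day 1 CTRL libraries, Pdia5 is blue in the 5 day 1 EXP libraries and red in the 3 day 4 EXP libraries, and Edem1 follows the split of the libraries.

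The libraries of the arms were also compared gene by gene for overlap. On day 1 EXP lay wholly below CTRL for 13 of the 33 genes (background 12.2%) and wholly above for 1, Atf4 (background 11.7%). On day 2 it lay wholly below for 10 (18.4%) and above for 5 (20.9%), and with 3 libraries per arm an exact permutation test cannot go below 0.1. On day 4 EXP lay below for 9 (11.8%) and above for 3 (13.8%). In these bulk libraries fewer cells of a type and less RNA per cell cannot be told apart.

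**Figure D2:**
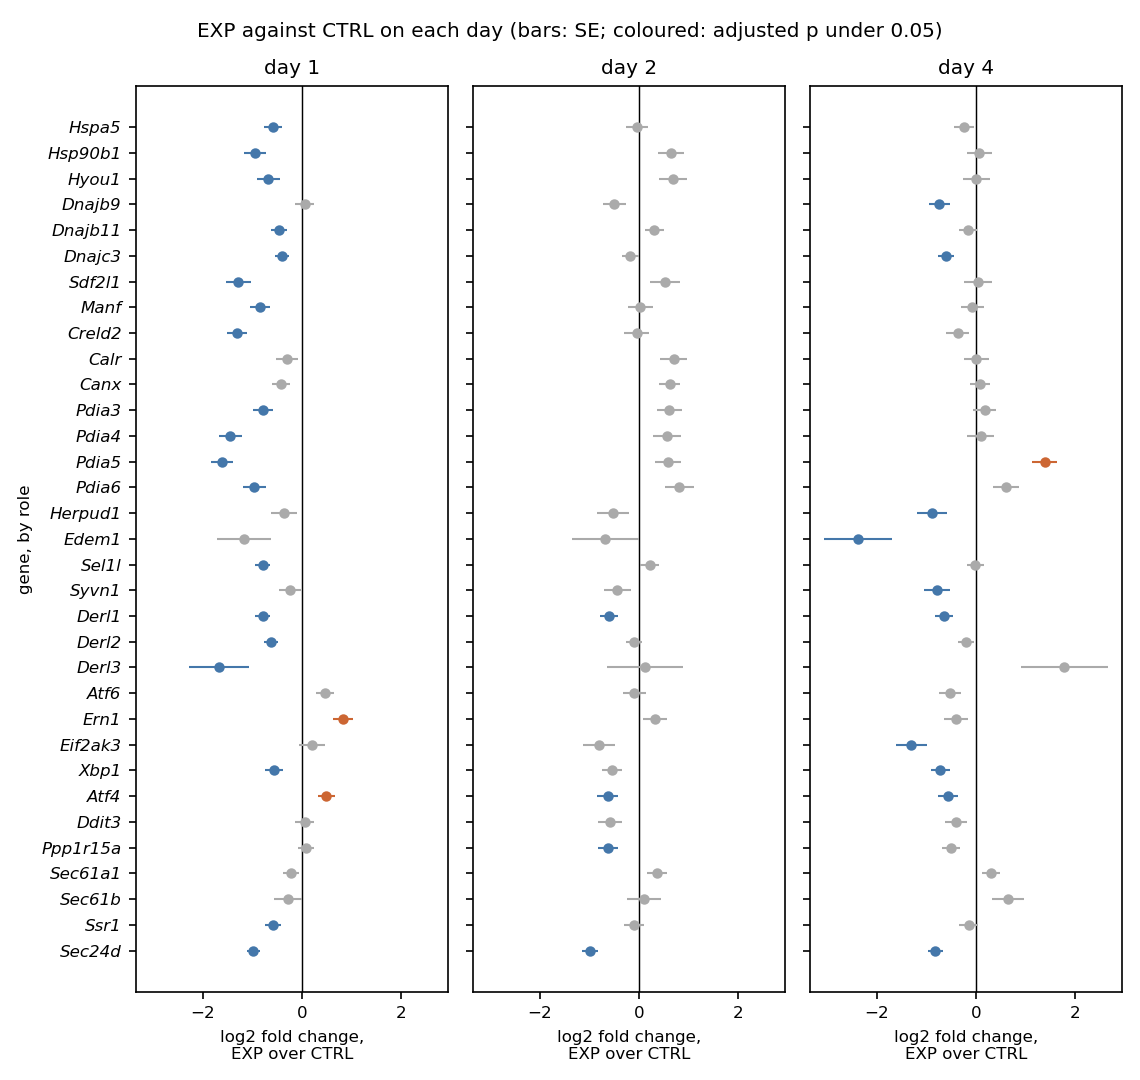
Log2 fold change of EXP over CTRL (x axis) with its standard error for each of the 33 genes on days 1, 2 and 4. Coloured points passed an adjusted p under 0.05: 19 lower and 2 higher on day 1, 4 lower on day 2, 10 lower and 1 higher on day 4.

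Among the chaperones, 8 of 9 fell in EXP on day 1, and the exception was Dnajb9. Hspa5 encodes BiP, the main Hsp70 of the ER lumen and the protein that holds the sensors inactive. On day 1 it was at 4025, 3787, 3585 and 3357 CPM in CTRL and at 2902, 2360, 1924, 3107 and 2044 CPM in EXP. Day 2 showed 2085, 1727 and 2360 CPM in CTRL and 2151, 1837 and 2019 CPM in EXP. Day 4 showed 2324, 2677, 2441 and 1438 CPM in CTRL and 1852, 1978 and 1797 CPM in EXP. The 4 day 1 CTRL libraries were thus the highest of all 22, and only on day 1 did the arms not overlap. The day 1 log2 fold change was -0.58 (SE 0.18, adjusted p 0.0182), and it did not pass without CTRL replicate 1 or EXP replicate 3 (adjusted p up to 0.0541), nor with library totals. Neither later value passed, at -0.04 (adjusted p 0.931) for day 2 and -0.24 (adjusted p 0.41) for day 4.

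Hsp90b1 (GRP94), the ER Hsp90, read 1095, 808, 1301 and 918 CPM in CTRL and 527, 707, 477, 615 and 355 CPM in EXP on day 1. On day 2 the order of the arms was the other way, with 346, 317 and 493 CPM in CTRL and 733, 516 and 562 CPM in EXP. On day 4 the arms overlapped, at 609, 567, 598 and 372 CPM in CTRL and 730, 545 and 415 CPM in EXP. Hsp90b1 fell by 0.94 on day 1 (SE 0.22, adjusted p 0.00302), while neither 0.65 on day 2 (adjusted p 0.116) nor 0.07 on day 4 (adjusted p 0.869) passed. The EXP effect differed between days (adjusted p 0.0156).

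Sdf2l1, a component of an ER chaperone complex with BiP, was at 139, 90.6, 135 and 126 CPM in CTRL and 41.3, 72.2, 47.8, 58.4 and 33 CPM in EXP on day 1. On day 2 CTRL had dropped to 27.9, 39.4 and 46.5 CPM, beside 70.4, 44.7 and 49.0 CPM in EXP. On day 4 the values were 30.9, 37.4, 37.8 and 20.4 CPM in CTRL and 29.5, 46.0 and 22.6 CPM in EXP. Each of the 4 day 1 CTRL libraries was above each of the other 18 libraries. The day 1 log2 fold change was -1.28 (SE 0.25, adjusted p 7e-04), those of day 2 (0.53, adjusted p 0.268) and day 4 (0.05, adjusted p 0.922) did not pass, and the effect differed between days (adjusted p 0.012).

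Creld2, an ER protein with isomerase activity that is secreted under stress, had the same shape. It was chosen for description after its values were seen. Day 1 CTRL averaged 238.6 ± 41.1 CPM (SD, n = 4), whereas day 1 EXP averaged 95.96 ± 21.3 CPM (SD, n = 5), with no overlap, and group means were 61.8 to 84.6 CPM on the later days. The day 1 log2 fold change of -1.31 (SE 0.20, adjusted p 8.99e-05) was kept in each fit that left out a library. Manf, a small ER-resident factor that is also secreted, fell by 0.84 (adjusted p 0.0036), and Hyou1, the large Hsp70 relative GRP170, fell by 0.68 (adjusted p 0.0321). The BiP co-chaperones Dnajb11 (ERdj3) and Dnajc3 (p58IPK) fell by 0.46 (adjusted p 0.0318) and 0.40 (adjusted p 0.034). The calls of Hyou1, Dnajb11 and Dnajc3 were each lost in 6 of 9 fits without 1 library and with library totals. Dnajb9 (ERdj4), a co-chaperone that serves degradation and represses IRE1, did not pass on day 1, when the CTRL mean was 175.8 ± 35.1 CPM (SD, n = 4) beside an EXP mean of 182.9 ± 34.9 CPM (SD, n = 5).

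On day 4 only 2 chaperones passed. Dnajb9 fell by 0.74 (adjusted p 0.02) and Dnajc3 by 0.60 (adjusted p 0.0128), while the other 7 did not. Leaving out day 4 EXP replicate 1 ended the call of Dnajc3, and 4 of 7 such fits ended that of Dnajb9. With library totals neither passed, at -0.43 for Dnajb9 (adjusted p 0.158) and -0.30 for Dnajc3 (adjusted p 0.108). The lectin chaperones Calr (calreticulin) and Canx (calnexin), which hold glycoproteins in the folding cycle, passed on no day at an adjusted p under 0.05 in this fit. Their log2 fold changes were -0.30 and -0.42 on day 1, 0.70 and 0.62 on day 2 (adjusted p 0.0937 and 0.0635), and 0.01 and 0.09 on day 4. On day 2 both were called higher with library totals (adjusted p 0.00911 for Calr and 0.00231 for Canx) and with totals without the 3 collagens (0.0423 and 0.0172). DESeq2 called Canx higher on that day, and the fit of the day 2 libraries alone called Calr.

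All 4 disulfide isomerases, which form and rearrange disulfide bonds, fell in EXP on day 1. Pdia4 (ERp72) was at 518, 333, 665 and 424 CPM in CTRL and 144, 263, 163, 195 and 128 CPM in EXP on that day. Day 2 had 145, 140 and 208 CPM in CTRL and 303, 197 and 229 CPM in EXP. Day 4 had 235, 210, 262 and 153 CPM in CTRL and 270, 253 and 165 CPM in EXP. Only day 1 CTRL stood apart, and within it the replicates spread from 333 to 665 CPM. Pdia4 fell by 1.44 on day 1 (SE 0.24, adjusted p 1.73e-04), while 0.57 on day 2 and 0.09 on day 4 did not pass (adjusted p 0.206 and 0.834). The difference between days passed (adjusted p 0.0038).

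Pdia6, an isomerase that also tempers IRE1, was at 704, 501, 879 and 696 CPM in CTRL and 314, 522, 340, 342 and 264 CPM in EXP on day 1. On day 2 CTRL was at 222, 261 and 335 CPM and EXP at 619, 361 and 458 CPM. On day 4 CTRL was at 308, 327, 328 and 235 CPM and EXP at 570, 517 and 272 CPM. The arms overlapped on day 1 through EXP replicate 2 alone, and on day 2 EXP lay wholly above CTRL. Pdia6 fell by 0.96 on day 1 (SE 0.23, adjusted p 0.00392). Its log2 fold change of 0.81 on day 2 (SE 0.28) had an adjusted p of 0.0626, and that of 0.60 on day 4 (SE 0.26) had 0.106. The day 2 value passed with library totals, without the 3 collagens and by DESeq2. The difference between days had an adjusted p of 0.0055.

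Pdia3 (ERp57), the partner of calnexin and calreticulin, was at 1276, 1005, 1644 and 1379 CPM in CTRL and 709, 1078, 652, 798 and 600 CPM in EXP on day 1. Day 2 read 577, 560 and 817 CPM in CTRL and 1182, 928 and 877 CPM in EXP. Day 4 read 1002, 1002, 902 and 627 CPM in CTRL and 1189, 1034 and 762 CPM in EXP. EXP was thus mostly below CTRL on day 1, wholly above it on day 2 and mixed with it on day 4. Pdia3 fell by 0.79 on day 1 (SE 0.20, adjusted p 0.00617), was 0.61 on day 2 (adjusted p 0.108) and 0.17 on day 4 (adjusted p 0.63), and differed between days (adjusted p 0.0185).

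Pdia5, a less abundant isomerase that has been linked to ATF6 activation, followed another course. On day 1 it was at 37.6, 39.9, 51.3 and 55.6 CPM in CTRL and 12.9, 20.6, 9.55, 15.8 and 16.5 CPM in EXP. The day 2 libraries had 36.2, 28.0 and 51.4 CPM in CTRL and 61.9, 65.0 and 46.7 CPM in EXP. The day 4 libraries had 40.2, 27.4, 41.0 and 30.4 CPM in CTRL and 104, 102 and 65.7 CPM in EXP. CTRL stayed between 27.4 and 55.6 CPM on all 3 days, while EXP was below it on day 1 and wholly above it on day 4. Pdia5 fell by 1.61 on day 1 (SE 0.22, adjusted p 3.55e-05), was 0.59 on day 2 (adjusted p 0.156) and rose by 1.39 on day 4 (SE 0.25, adjusted p 0.00117). It had the smallest p of the 33 for an effect that differed between days (adjusted p 8.57e-05), the fifth of all 17554 genes, and no fit without 1 library ended that call or the calls of days 1 and 4.

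**Figure D3:**
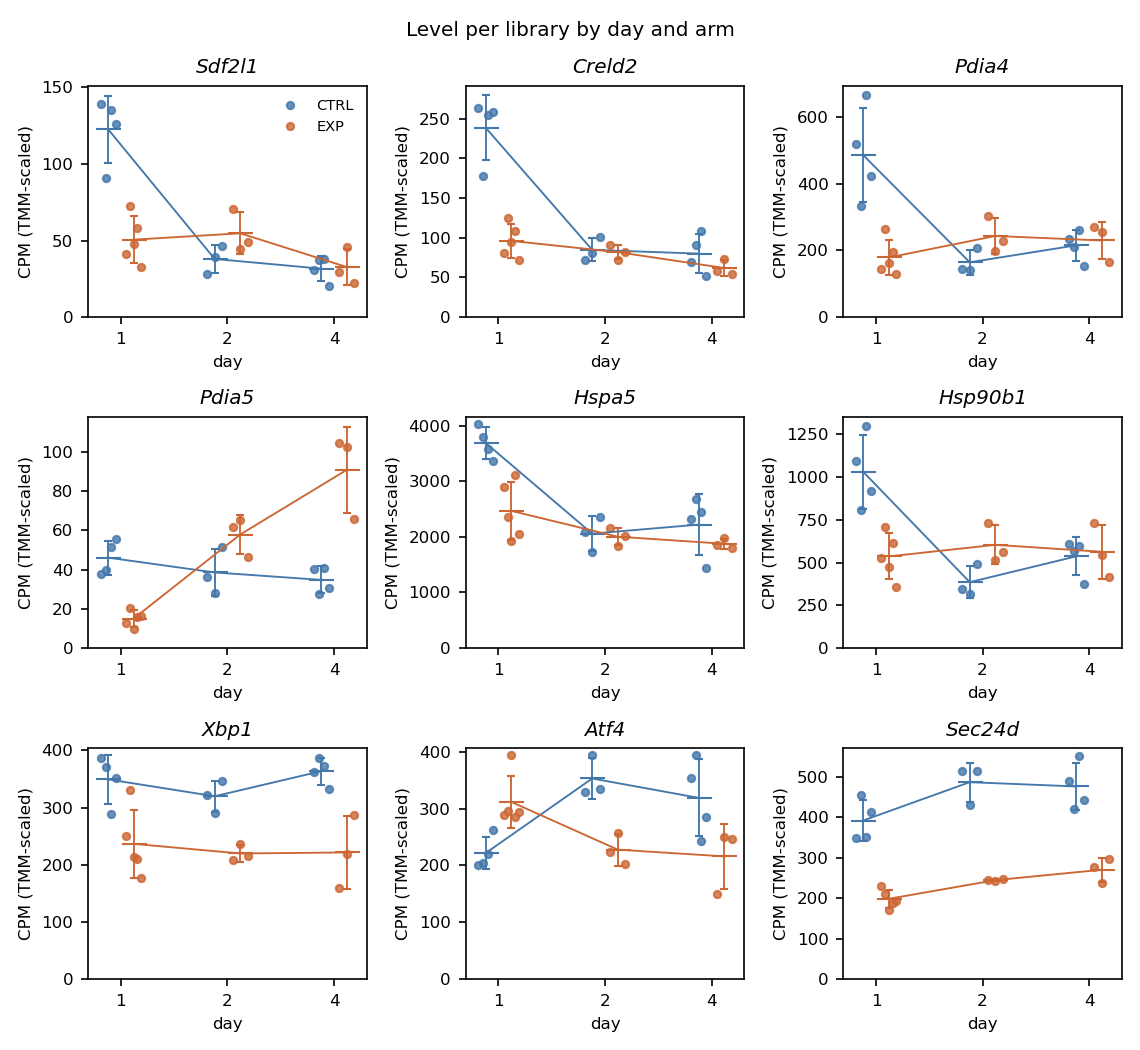
TMM-scaled CPM (y axis, from 0) of 9 of the genes by day and arm; each point is a library, and the joined bars are means with SD. Sdf2l1, Creld2, Pdia4, Hspa5 and Hsp90b1 are highest in day 1 CTRL, Pdia5 climbs only in EXP, and Xbp1 and Sec24d means are lower in EXP on all 3 days.

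The ER-associated degradation genes fell in EXP in part. On day 1 the test called 4 of 7 lower, then 1 at the second time and 4 at the last. Sel1l, the scaffold of the degradation ligase complex, was at 362, 288, 294 and 286 CPM in CTRL and 193, 168, 139, 203 and 187 CPM in EXP on day 1. The day 2 values were 191, 155 and 202 CPM in CTRL and 211, 218 and 208 CPM in EXP, and those of day 4 were 175, 148, 249 and 198 CPM in CTRL and 165, 216 and 190 CPM in EXP. Again day 1 CTRL stood above every other library. Sel1l fell by 0.79 on day 1 (SE 0.15, adjusted p 6.84e-04), was 0.22 on day 2 (adjusted p 0.478) and -0.01 on day 4 (adjusted p 0.961), and differed between days (adjusted p 0.0196).

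Derl1, a derlin of the retrotranslocation channel, was lower in EXP on each day. It was at 163, 172, 155 and 175 CPM in CTRL and 101, 120, 81.5, 94.8 and 84.2 CPM in EXP on day 1. Values on day 2 were 176, 155 and 199 CPM in CTRL and 107, 130 and 113 CPM in EXP. Values on day 4 were 214, 207, 184 and 152 CPM in CTRL and 87.0, 135 and 141 CPM in EXP. The arms did not overlap on any day. Derl1 fell by 0.79 on day 1 (SE 0.15, adjusted p 7.53e-04), by 0.60 on day 2 (SE 0.19, adjusted p 0.0377) and by 0.64 on day 4 (SE 0.18, adjusted p 0.0147). The day 2 call was lost in 4 of 6 fits without 1 library and the day 4 call without EXP replicate 1, and both were lost with library totals. Totals without the 3 collagens gave adjusted p 0.0706 on day 2.

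Derl2, its paralogue, fell by 0.62 on day 1 (adjusted p 0.00197) and passed on no later day. Derl3, the third derlin, had 22 to 94 counts per library in day 1 CTRL and at most 3 in day 4 CTRL, the level taken here as the limit of detection (0.0803 to 0.157 CPM, counting error only). It fell in EXP on day 1 by 1.67 (SE 0.61, adjusted p 0.0433), a call lost in 5 of 9 fits without 1 library and with library totals. On day 4 the degradation genes Herpud1, Edem1 and Syvn1 fell besides Derl1. Herpud1, which assembles the ligase complex, fell by 0.88 (adjusted p 0.0429), and Syvn1, the HRD1 ligase, fell by 0.78 (adjusted p 0.0369). Those calls were lost in 5 and 6 of 7 fits without 1 library, and both with library totals (-0.64 for Herpud1 and -0.45 for Syvn1).

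Edem1, a lectin that sends misfolded glycoproteins to degradation, fell by 2.37 on day 4 (SE 0.68, adjusted p 0.019), but its values followed the split of the libraries. Day 4 CTRL replicates 1 and 2, on the low side, were at 22.7 and 37.6 CPM, and replicates 3 and 4, on the high side, at 141 and 146 CPM, beside 14.7, 18.3 and 17.4 CPM in EXP. On day 1 CTRL the low-side replicate 4 was at 29.8 CPM and the other 3 at 129 to 156 CPM. The call was lost in 4 of 7 fits without 1 library (CTRL replicate 3 or 4, EXP replicate 1 or 2), without the filter on low counts and in the fit of the day 4 libraries alone. For Edem1 the log2 fold change was -0.96 with the split as a covariate. The call was kept in that fit, but Edem1 is itself among the genes that define the split. All 3 EXP libraries of that day were on the low side, so group and split cannot be told apart for the upper pair of CTRL libraries.

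Of the 3 sensors, 1 rose on day 1 and 1 fell on day 4. Ern1 (IRE1α), the kinase and nuclease that splices Xbp1, rose in EXP on day 1 by 0.83 (SE 0.21, adjusted p 0.00535). Its mean then was 16.9 ± 2.99 CPM (SD, n = 4) without the expander, beside 29.9 ± 8.38 CPM with it (SD, n = 5). Its values on day 2 (0.32, adjusted p 0.428) and day 4 (-0.40, adjusted p 0.226) did not pass. Eif2ak3 (PERK), the kinase that slows translation, was at 9.92 ± 2.08 and 11.4 ± 3.93 CPM on day 1 (SD, n = 4 and 5) and 18.3 ± 7.82 and 7.42 ± 1.15 CPM on day 4 (SD, n = 4 and 3), CTRL first. It fell by 1.30 on day 4 (SE 0.31, adjusted p 0.00615), a call kept in each fit without 1 library, although CTRL replicate 4 at 29.9 CPM was far above the other 3. Atf6, the membrane-bound transcription factor, passed on no day (0.47, -0.10 and -0.52, adjusted p 0.0692, 0.83 and 0.0832).

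Of the transcription factors, Xbp1 was at 386, 372, 288 and 352 CPM in CTRL and 251, 332, 213, 210 and 177 CPM in EXP on day 1. The second day gave 323, 291 and 346 CPM in CTRL and 208, 236 and 215 CPM in EXP. On day 4 it was at 363, 388, 372 and 332 CPM in CTRL and 159, 219 and 286 CPM in EXP. The arms overlapped on day 1 through EXP replicate 2 and were apart on days 2 and 4. Xbp1 fell by 0.56 on day 1 (SE 0.17, adjusted p 0.0179), the day 4 fall was by 0.72 (SE 0.20, adjusted p 0.0153), and its value of -0.54 on day 2 (SE 0.21) had an adjusted p of 0.0922. The calls were lost without day 1 CTRL replicate 1, without day 1 EXP replicate 5 and without day 4 EXP replicate 1. With library totals the day 4 value of Xbp1 was -0.43 and still passed. The effect did not differ detectably between days (adjusted p 0.888).

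Atf4, the factor that PERK signalling induces, changed direction. It was at 200, 204, 220 and 261 CPM in CTRL and 288, 296, 394, 285 and 295 CPM in EXP on day 1. The day 2 values were 330, 394 and 335 CPM in CTRL and 224, 258 and 202 CPM in EXP. On day 4 it was at 353, 394, 242 and 286 CPM in CTRL and 150, 250 and 247 CPM in EXP. EXP was wholly above CTRL on day 1, wholly below it on day 2 and mostly below it on day 4. Atf4 rose by 0.49 on day 1 (SE 0.17, adjusted p 0.0365). It then fell by 0.63 on day 2 (SE 0.21, adjusted p 0.0475), and the day 4 fall was by 0.56 (SE 0.20, adjusted p 0.0441). With library totals the values of Atf4 were -0.17 on day 2 (adjusted p 0.571) and -0.28 on day 4 (adjusted p 0.273), and both calls were lost also without the 3 collagens. Each of these single-day calls was lost in 4 or more fits without 1 library, but the difference between days (adjusted p 0.0134) was kept in all 22.

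Ddit3 (CHOP), the stress factor downstream of ATF4, passed on no day. Day 1 had 25.5, 27.7, 27.9 and 20.4 CPM in CTRL and 23.1, 30.4, 28.7, 27.3 and 22.2 CPM in EXP. Day 2 had 37.2, 42.1 and 34.8 CPM in CTRL and 26.7, 25.6 and 24.0 CPM in EXP. Day 4 had 30.5, 41.6, 22.1 and 23.4 CPM in CTRL and 14.5, 24.0 and 28.7 CPM in EXP. The arms were apart on day 2 alone, where the log2 fold change was -0.58 (SE 0.24, adjusted p 0.108). The values of days 1 and 4 were 0.05 (adjusted p 0.864) and -0.39 (adjusted p 0.21). Ppp1r15a (GADD34), the phosphatase subunit that restores translation, fell by 0.62 on day 2 (adjusted p 0.0466), a call lost in each of 6 fits without 1 library and, at -0.14, with library totals.

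Among translocon and export genes, Sec24d, the COPII cargo subunit, had the steadiest difference. It was at 348, 456, 352 and 412 CPM in CTRL and 230, 209, 171, 188 and 193 CPM in EXP on day 1. The second time point gave 514, 430 and 515 CPM in CTRL and 244, 243 and 246 CPM in EXP. On day 4 it was at 488, 420, 552 and 443 CPM in CTRL and 276, 238 and 296 CPM in EXP. No EXP library reached any CTRL library of its day. Sec24d fell by 0.98 on day 1 (SE 0.13, adjusted p 2.46e-05), then by 0.99 (SE 0.16, adjusted p 6.63e-04), and at the last time by 0.82 (SE 0.15, adjusted p 0.00138). Leaving out any 1 library ended none of these calls. Neither did the 8 other settings tried, among which library totals gave the smallest falls on the later days (-0.52 and -0.48), but the fit within the low side of the split on day 4 did, at -0.75. Ssr1, a subunit of the translocon-associated complex, fell by 0.58 on day 1 (adjusted p 0.0121), a call lost without CTRL replicate 4 and with library totals. Sec61a1 and Sec61b, the channel subunits, passed on no day with TMM scaling. With library totals Sec61a1 passed on day 2 (0.84, adjusted p 0.00943) and day 4 (0.65, adjusted p 0.023), and Sec61b on day 4 (0.94, adjusted p 0.0261).

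The EXP effect differed between days for 11 of the 33 genes (background 8.82%). Set against day 1, the day 2 effect was higher for 10 genes (background 2.48%), Hsp90b1, Hyou1, Sdf2l1, Creld2, Canx, Pdia3, Pdia4, Pdia5, Pdia6 and Sel1l, with differences of 1.01 to 2.20, and lower for Atf4 alone (-1.12, background 0.484%). The day 4 effect was higher than that of day 1 for 9 genes (background 8.16%) and lower for 4 (background 5.18%), Atf6, Ern1, Eif2ak3 and Atf4. With the replicate block, in which same-numbered libraries of a day are matched, the joint test called 1 of the 33, Pdia5. Over all genes it then called 401, against 1549 without the block.

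The changes within each arm place only part of these differences. Pdia3, Sel1l, Atf4, Ern1 and Eif2ak3, whose EXP effect differed between days, were called for change over the 3 days in neither arm. Within CTRL, 9 of the 33 genes changed over the 3 days (Creld2, Sdf2l1, Pdia4, Manf, Derl3, Pdia6, Hsp90b1, Hyou1 and Dnajb11), while only 51 of all 17554 genes did (0.291%), and Creld2 and Sdf2l1 had the smallest p-values of all genes (adjusted p 0.00243 each). From day 1 to day 2 in CTRL, 7 fell (background 0.216%), which were Sdf2l1 (-1.69), Pdia4 (-1.56), Creld2 (-1.50), Hsp90b1 (-1.42), Pdia6 (-1.35), Manf (-1.09) and Dnajb11 (-0.92). From day 1 to day 4, 4 were lower (background 0.0741%), Creld2, Sdf2l1, Manf and Derl3, and Derl3 was at least 15.9-fold higher in day 1 CTRL than in day 4 CTRL, taking 3 counts per library as the floor. The day 1 contrast between arms and these contrasts share the 4 day 1 CTRL libraries, so they are not separate evidence. Leaving out day 1 CTRL replicate 1 or replicate 3 reduced the 9 genes to 2, leaving out day 2 CTRL replicate 1 to 3 and day 2 CTRL replicate 2 to 4, and with the split as a covariate 4 were called. Calls over all genes fell as well, from 51 to 5 and 20, to 15 and 23, and to 29 in the same order. Creld2 and Sdf2l1 were called in each of these fits. Replicate 4 of day 1 CTRL, on the low side of the split, had a mean log2 CPM over the 33 genes of 7.46, beside 7.38 to 7.59 in the other 3.

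**Figure D4:**
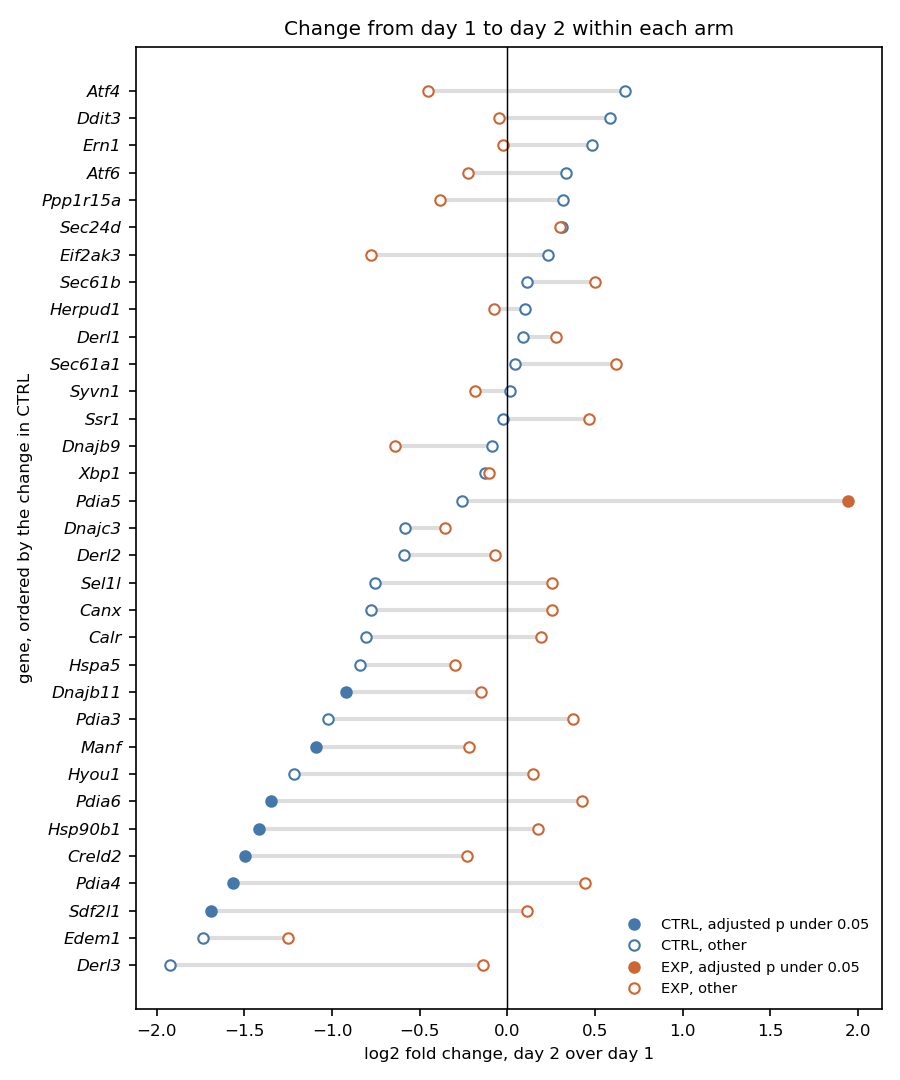
Log2 fold change from day 1 to day 2 within CTRL (blue) and within EXP (orange) for each gene, with filled points at an adjusted p under 0.05. In CTRL 7 chaperones and isomerases fell, from -0.92 to -1.69, and in EXP only Pdia5 is filled, at 1.94.

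Within EXP, 5 of the 33 changed over the days (background 14.3%), Pdia5, Sec61a1, Dnajc3, Ssr1 and Dnajb9. From day 1 to day 2 only Pdia5 rose (1.94, SE 0.24, adjusted p 1.21e-04, background 2.27%). By day 4 it had risen by 2.59 (SE 0.24, adjusted p 2.2e-06). Sec61a1 (0.73), Ssr1 (0.66) and Sec24d (0.45) also rose from day 1 to day 4, which makes 4 (background 12.1%), and 5 fell (background 6.87%), Dnajb9, Dnajc3, Atf6, Ern1 and Ppp1r15a, by 0.57 to 0.69. Leaving out day 4 EXP replicate 1 reduced the 5 genes to 2, while leaving out day 1 EXP replicate 1 or 4, day 2 EXP replicate 3 or day 4 EXP replicate 2 gave 3 and leaving out day 4 EXP replicate 3 gave 8. Calls over all genes in the same order were 1647, then 1691, 2347, 2137 and 1367, and then 3415, against 2502 with every library.

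Compared by level per kilobase of exon, averaged over the 6 groups, Hspa5 was the most abundant at 564 CPM per kb. It was followed by Pdia3 at 298, Calr at 237, Ppp1r15a at 179, Hsp90b1 at 151 and Herpud1 at 144 CPM per kb. The sensors were low, at 12.4 (Atf6), 2.91 (Ern1) and 1.81 CPM per kb (Eif2ak3), and Derl3 was lowest at 0.352. The 9 genes with an ERSE had a median change in CTRL from day 1 to day 2 of -0.84, the 19 with a window and no ERSE -0.09, and all tested genes with a window -0.05. For EXP against CTRL on day 1 the medians were -0.58, -0.56 and -0.08. Of 20 tested genes in the table with an ERSE, 11 were not among the 33, and their median day 1 log2 fold change was -0.78, with 2 called lower and 1 higher. In CTRL from day 1 to day 2 the median of those 11 was -0.38. These are descriptions with no test.

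Other genes of the pathway, from lists written from general knowledge, were 129 of 130 found in the table. Of 33 further folding enzymes and lectins, 18 fell on day 1 and 0 rose (1 at an unadjusted p under 0.05, 0 by DESeq2), with a median of -0.57, led by the prolyl isomerase Fkbp14 (-1.92, adjusted p 2.33e-05) and the oxidase Ero1b (-1.32, adjusted p 3.37e-05). Of 26 COPII export and retrieval genes 13 fell and 0 rose (1 at an unadjusted p under 0.05, 1 by DESeq2), median -0.45, among them the cargo receptor Lman1 (-1.24, adjusted p 3.12e-05) and the secretory pathway factor Creb3l1 (-1.41, adjusted p 9.37e-05). Of 11 oligosaccharyltransferase genes 4 fell and 0 rose (0 at an unadjusted p under 0.05, 0 by DESeq2), among them Magt1 (-1.08, adjusted p 0.00522) and Rpn1 (-0.55, adjusted p 0.0116). Of 22 other degradation genes 5 fell and 3 rose, with Edem2 (-1.27, adjusted p 8.32e-04) and Os9 (-0.70, adjusted p 0.00311) first by p. Of 21 targeting, translocon and signal peptidase genes 3 fell, led by Tram1 (-0.68, adjusted p 0.00208), and 1 rose, Sec61a2 (0.62, adjusted p 0.0123). All these counts stand beside backgrounds of 14.7% lower and 13.9% higher, and the count of lower genes in the translocon list is close to that background.

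Of 17 targets of PERK and ATF4, 8 rose (background 13.9%) and 2 fell (background 14.7%) on day 1 and 7 did not pass. Their log2 fold changes ran from -1.14 to 2.39 with a median of 0.61, against 0.02 for all tested genes. The stress-induced Sesn2 rose by 1.14 (adjusted p 5.67e-05) and the asparagine synthetase Asns by 1.04 (adjusted p 3.74e-04). On day 2 there were 5 higher (background 7.72%) and 2 lower (background 5.71%). The hormone Stc2 then rose by 1.99 (adjusted p 0.00402) and the early stress factor Atf3 fell by 2.37 (adjusted p 6.03e-05). On day 4 there were 1 higher (background 12.8%) and 4 lower (background 9.66%). Among the lower were the apoptosis gene Bbc3 (-2.41, adjusted p 0.0132) and Cebpg (-1.55, adjusted p 0.0211). With library totals the day 4 counts were 4 higher and 2 lower, where 5289 of all 17554 genes were called, 4271 of them higher.

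On the later days fewer genes of the other lists were called. Calls over all tested genes were fewer as well, 2359 on day 2 and 3943 on day 4 against 5017 on day 1. The backgrounds were 5.71% lower and 7.72% higher on day 2, and 9.66% lower and 12.8% higher on day 4. For the further folding enzymes and lectins there were 6 lower and 1 higher on day 2, with Ero1b (-0.89, adjusted p 0.0116) and the collagen chaperone Serpinh1 (-1.41, adjusted p 0.0208) first. On day 4 there were 3 lower, Ero1b (-1.30, adjusted p 5.61e-04) and Txndc11 (-1.62, adjusted p 0.0223) among them, and 1 higher. With library totals these became 1 lower and 11 higher on day 2 and 2 lower and 8 higher on day 4. Of all 17554 genes that setting called 4632 on day 2, 4191 of them higher, and 5289 on day 4, 4271 of them higher. In the COPII list 5 fell on day 2, led by Creb3l1 (-1.31, adjusted p 0.0035) and Sec31a (-0.70, adjusted p 0.0107), and 4 on day 4, led by Sec23b (-0.58, adjusted p 0.0242) and Mia2 (-1.30, adjusted p 0.0324). Os9 fell on day 2 (-0.64, adjusted p 0.0394) and day 4 (-0.76, adjusted p 0.00868), while Edem2 rose on day 4 (1.07, adjusted p 0.0117). Sec62 fell on day 2 (-0.64, adjusted p 0.00986) and day 4 (-0.43, adjusted p 0.0378), and the oligosaccharyltransferase Stt3b fell on day 4 (-0.89, adjusted p 0.0162).

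**Figure D5:**
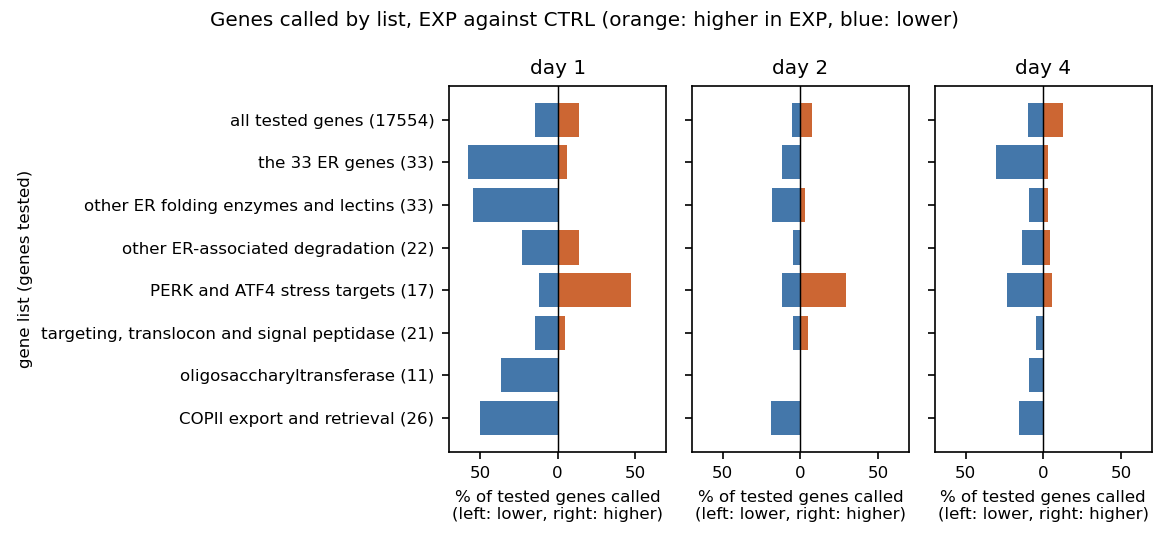
Percent of the tested genes of each list called higher (right, orange) or lower (left, blue) in EXP on each day, with the number tested in brackets. On day 1 the 33 ER genes, the other folding enzymes and the COPII list lean to lower, and the PERK and ATF4 targets to higher with 8 of 17 called.

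Markers of other cell types were low beside the summed fibroblast markers, which were at 68200 to 409000 CPM over the libraries. The fibroblast list holds Col1a1, Col1a2 and Col3a1, which reached 135000, 128000 and 122000 CPM, while no other gene of it passed 27100 CPM (Dcn). These collagens carry most of its sum, so its difference between arms largely repeats that of the collagen shares given above. On day 1 the fibroblast list summed to 211000 to 284000 CPM in CTRL and 93600 to 172000 CPM in EXP, with 4 of 8 genes lower and 1 higher, and the pericyte and smooth muscle list to 32.1 to 59.1 CPM and 15.2 to 28.5 CPM, with 1 of 6 lower. The keratinocyte list summed to 7.29 to 41.3 CPM and 2.17 to 13.9 CPM, with 1 of 6 lower. Of all tested genes 14.7% were lower on that day, and 1 of 6 is close to that share. The mean endothelial (7.05 and 3.19 CPM) and adipocyte (13.7 and 3.71 CPM) sums, CTRL first, were lower in EXP too, with 0 genes called. The means of the B and plasma cell list and of the melanocyte and Schwann list were higher in EXP. The part of any of these lists in the 19 lower ER genes of that day was not tested. The adipocyte list summed to 1.82 to 24.9 CPM in day 1 CTRL, 0.835 to 9.65 CPM in day 1 EXP, 0.249 to 3.13 CPM in day 2 CTRL, 8.03 to 88.9 CPM in day 2 EXP, 0.545 to 2.23 CPM in day 4 CTRL and 43.6 to 502 CPM in day 4 EXP. All 5 of the adipocyte genes tested were higher in EXP on day 4, where 10 ER genes were lower and Pdia5 higher, and the part of these cells in those values was not tested. The endothelial list reached 22.9 to 52.9 CPM in day 4 EXP against 4.16 to 9.48 CPM in CTRL, and 2 of 4 tested genes were higher. Its largest member was Tek, at up to 44.9 CPM. Over all libraries Pecam1, Kdr, Emcn and Cdh5 reached at most 3.68, 2.57, 1.18 and 0.59 CPM. The plasma cell gene Mzb1 was at 0 in all 22 libraries, and Sdc1, which other cells also express, was at 30.7 to 244 CPM. The immune list summed to 36.3 to 165 CPM, with Ptprc at most 0.243 CPM and at 0 in 16 libraries. Adgre1, Itgam and Lyz2 reached at most 0.236, 0.231 and 4.37 CPM. The rest of that sum came from Csf1r at 14.4 to 158 CPM, Cd3e at 0.293 to 28.9 CPM and Cd68 at 1.43 to 24.9 CPM. Over all libraries the pericyte and smooth muscle list stayed at or below 72.7, the melanocyte and Schwann list at or below 37.2 and the skeletal muscle list at or below 3.19 CPM.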

How the data were processed

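The authors deposited a table of raw read counts per Ensembl gene for the 22 libraries, made from ultra-low-input paired-end reads. Trimmomatic and the build mm39 come from the submitters' processing notes, and the aligner, counting tool, annotation and strand setting are not given in the sources used here. Identifiers were matched to symbols through GENCODE M21. All libraries were fitted together in edgeR 4.0.16 (R 4.3.3), with filterByExpr at a minimum count of 10, TMM scaling, 6 group means and robust quasi-likelihood tests on 16 residual degrees of freedom. P-values were adjusted by the Benjamini-Hochberg method over all tested genes and called under 0.05. CPM carry no prior count, log2 CPM use a prior count of 2, and fold changes come from the edgeR fit. Overlap between arms was read from the lowest and highest CPM, without a test. The two-sided exact permutation test was of the difference in mean log2 CPM. With totals of 21461294 to 30210204 counts, intervals and floors cover counting error only.

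The members and lists were chosen with earlier results of these data known. Genes with every library printed were those of a rule: BiP, Xbp1, Atf4 and Ddit3, members called on all 3 days, and the members with the 8 smallest p for an effect that differed between days. Alternatives were other scalings, DESeq2 1.42.0, no filter on low counts, fits of each contrast's libraries alone, a replicate block, the library split as a covariate and leaving out each library. The fits within 1 side of the split were added after seeing the data. The tests were checked on simulated data with a single spread for all genes. That simulation did not model the library split or the collagen difference between arms. Promoter sequences are RefSeq, GRCm38.p6, and none of its coordinates was joined to the counts.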

Additional observations from a re-analysis of the deposited data

Results flagged for a closer look

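In 7 of 98 groups of 4 or 5 libraries that were examined, 1 library stood far from the others, where chance gives about 1 in 20 (4.9). Creld2 was at 177.1 CPM in day 1 CTRL replicate 2, below 254.7 to 263.9 CPM in the other 3. Eif2ak3 was at 6.8 CPM in day 1 CTRL replicate 3, below 10.8 to 11.1 CPM, and at 29.95 CPM in day 4 CTRL replicate 4, above 13.79 to 15.62 CPM. Sel1l was at 362.3 CPM in day 1 CTRL replicate 1, above 285.8 to 294.5 CPM. Atf4 was at 394.2 CPM in day 1 EXP replicate 3, above 285.4 to 295.8 CPM, and Ssr1 at 285.2 CPM in day 1 EXP replicate 2, above 216.1 to 235.8 CPM. Sec61a1 was at 315.0 CPM in day 4 CTRL replicate 4, below 435.3 to 450.4 CPM.

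For 11 genes the EXP effect differed between the days by the edgeR interaction test. The adjusted p was 8.57e-05 for the isomerase Pdia5, 0.0038 for Pdia4, 0.0055 for Pdia6 and 0.0185 for Pdia3. Among chaperones it was 0.012 for Sdf2l1, 0.0156 for Hsp90b1 and 0.0258 for Creld2. It was 0.0196 for Sel1l, 0.0134 for Atf4, 0.0415 for Ern1 and 0.044 for Eif2ak3. The calls of Eif2ak3, Ern1 and Creld2 were lost in 15, 11 and 9 of 22 fits without 1 library, those of Eif2ak3 and Ern1 also with library totals, and those of all but Pdia5 with the replicate block. By sign, 7 of the 11 had a negative value for day 1 and a positive one for day 2.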

How the results depend on the processing

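No called gene of the 33 reversed its sign in any contrast between arms under the alternatives run. With library totals the counts were 13 higher and 1 lower on day 2, 4 and 4 on day 4, and 15 for change over days in CTRL. Of all genes 4191 were then higher on day 2 and 4271 on day 4, and 163 changed in CTRL. Totals without the 3 collagens gave 4 higher and 1 lower on day 2, 2 higher on day 4 and 14 in CTRL. Of all genes 2003 were then higher on day 2 and 3043 on day 4, and 123 changed in CTRL. DESeq2 gave 2 higher on day 2, 9 for change in EXP and 15 in CTRL, against 1691, 3551 and 525 of all genes. Without the filter 1 was higher on day 1 and 1 lower on day 2. Of all 33490 genes then tested 1924 were higher on day 1, and 1663 were called on day 2, 980 of them higher. Fits of each contrast's own libraries gave 2 higher and 9 lower on day 2 and 3 lower on day 4. Those fits called 3514 of all genes on day 2, 1830 of them higher, and 1128 on day 4, 742 of them higher. The replicate block gave 1 higher on day 1, 1 lower on day 2, 1 for an effect differing between days, 2 in EXP and 5 in CTRL, but the numbers share no stated origin and same-numbered libraries correlated at -0.066 to 0.164, on day 4 at 0.08 to 0.146 with each EXP library closest to the CTRL library of its number. With the replicate block 2110 of all genes were higher on day 1 and 2210 were called on day 2. It called 401 of all genes for differing effects, 1432 in EXP and 19 in CTRL. The split as a covariate gave 1 higher on day 1 and 4 in CTRL, against 2420 and 29 of all genes. Within its high side on day 1, 0 were higher and 6 lower, and within its low side on day 4, 0 and 0. Leaving out 1 library gave 1 to 2 higher and 14 to 19 lower on day 1, 0 to 1 and 1 to 2 on day 2, 1 to 2 and 2 to 12 on day 4, 8 to 13 for differing effects, 2 to 8 in EXP and 2 to 10 in CTRL. Of all genes such fits called 4024 to 4830 on day 1, 891 to 2177 on day 2 and 1633 to 5011 on day 4. They called 898 to 2572 of all genes for differing effects, 1367 to 3415 in EXP and 5 to 92 in CTRL. At least 3 counts were taken as detectable, which limits Derl3 only.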
